A study of Homo sapiens with 72 samples.

Results

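The comparison described here set irradiated IMR-90 cells directly against bystander IMR-90 cells 4 h after exposure, 4 arrays against 4, out of 72 arrays in the series. Its members were the 4 arrays labelled irradiated (alpha) and the 4 labelled bystander at 4 h, paired by experiment number, and no control array entered the contrast. IMR-90 is a human lung fibroblast strain, used here at early passage. Both groups came from the same dishes, which received 0.5 Gy of helium ions as simulated alpha particles in a single exposure. Irradiated cells grew on thin Mylar that the particles crossed, whereas bystander cells grew on inner strips of Mylar thick enough to stop them, and both populations formed a contiguous layer until they were separated for RNA isolation. Controls were sham-irradiated and collected at the same times. The 4 experiments were stated to be independent, with all samples of an experiment grown from 1 pool of cells. The dose was that of the dish, so a bystander cell was unexposed while it shared medium and contacts with exposed cells throughout the 4 h.

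All 12 fibroblast markers, among them VIM, COL1A1 and COL3A1, were well above background on all 8 arrays. So were 7 of 10 epithelial, 3 of 7 endothelial and 3 of 8 leukocyte markers. Well above background on 0 of the 8 arrays were 3 leukocyte markers, PTPRC among them, 1 endothelial marker, PECAM1, and 1 epithelial marker, CDH1. Markers detected on all 8 arrays included TEK, KDR and VWF (endothelial), CD3E, CD68 and CD14 (leukocyte) and EPCAM, KRT14, SFTPC, SCGB1A1 and MUC1 (epithelial). KRT8 and KRT18, keratins best known from simple epithelia, were detected on all 8. Summed marker signals overlapped between the groups. The fibroblast markers summed to between 684500 and 1008000 units on irradiated arrays and between 707400 and 855000 on bystander arrays, and the epithelial markers to between 6110 and 15520 and between 5563 and 13620.

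The transcription factor p53 is held at a low level in unstressed cells by MDM2, which marks it for degradation. DNA breaks activate the kinases that release p53, and p53 then switches on genes that stop the cell cycle, repair DNA, prepare cell death or, like MDM2 itself, restrain p53 again. In irradiated fibroblasts the best known outcome is arrest through CDKN1A, which encodes the cyclin-dependent kinase inhibitor p21. NF-kB, the regulator of inflammatory cytokines, is another factor known to respond to radiation and to signals passed between cells. A densely ionizing particle leaves its direct damage along the track, and here traversed and untraversed cells shared the medium. DNA breaks were not measured in either group.

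At 4 h nearly every difference that passed the test was higher in irradiated cells. Of the 43 genes that passed, 26 were in lists of p53 targets and 17 were in none. The lists were written with earlier results of these arrays in view. Values are log2 signals after each array was scaled to the same 75th percentile, a difference is irradiated minus bystander, and a gene is called where limma's paired fit over 25168 probes gave an adjusted p below 0.10. Of these probes 66 were higher in irradiated cells, a background of 0.262%, and 1 was lower, or 0.00397%. With 1 probe for each of 12992 genes, 43 genes were higher, which is 0.331% of all, and 0 were lower. At an unadjusted p below 0.05 limma counted 2015 probes, 8.01% of those tested. The called genes differed by 1.39-fold to 4.11-fold, and 16 of them by more than 2-fold. All 43 were higher in 4 of 4 experiments, where 8.58% of all genes tested were higher in 4 of 4 and 6.73% lower in 4 of 4. In 26 of the 43 the lowest irradiated array lay above the highest bystander array, which held for 0.562% of all genes. A further 0.0924% of all genes had groups that did not overlap with the bystander arrays higher. Because the 43 genes were chosen on these same arrays, their counts here are a description. Over the 43 genes the single differences ranged from 0.35 to 2.59, and the medians of the 4 experiments were 0.86, 0.99, 0.82 and 1.00.

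The count of calls depended on the fit. Without the experiment as a block 1 probe was called, with the slide as a block in its place 2, with the 4 control arrays in the fit 2, with no filter on dim probes 0, and without experiment 1 it was 3, while without experiment 2 it was 268 higher and 34 lower. Scaling mattered as well. Each bystander array was brighter than its irradiated partner. The 75th percentiles were 10.43, 10.82, 11.20 and 10.04 on the log2 scale against 10.04, 10.78, 9.91 and 9.74. Left unscaled, the median over all probes was -0.48, and 4 probes were called higher and 16 lower, so that 20% of the calls were higher against 98.5% after scaling.

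**Figure D1:**
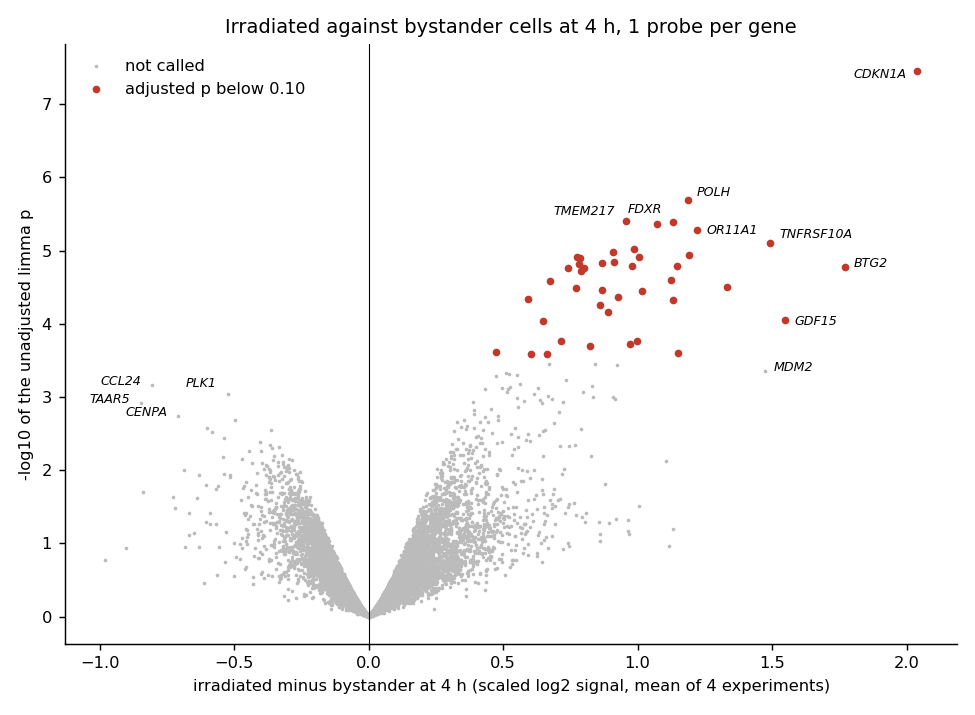
Each point is 1 of 12992 genes. The horizontal axis is the difference in scaled log2 signal, irradiated minus bystander, averaged over 4 experiments, and the vertical axis is the negative log10 of limma's unadjusted p; the 43 red genes passed the adjusted threshold, and all of them lie to the right of 0.

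CDKN1A had the smallest p of all genes tested. Its log2 signal was 15.17, 15.04, 15.21 and 15.16 on the irradiated arrays of experiments 1 to 4, and 12.98, 12.82, 13.58 and 13.06 on the bystander arrays. The groups did not overlap, and the irradiated arrays had an SD of 0.07. The difference was 2.04 ± 0.27 (SD of the 4 differences), a 4.11-fold higher signal, with an adjusted p of 0.000896 by limma. The other CDKN1A probe differed by 2.00 ± 0.44 and was also called.

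BTG2, an antiproliferative gene, was the next largest. It read 10.70, 10.65, 10.66 and 10.06 in irradiated cells and 8.64, 8.77, 9.81 and 7.77 in bystander cells, so the groups were apart in spite of a high bystander array in experiment 3 and a low one in experiment 4. Its difference was 1.77 ± 0.63, with an adjusted p of 0.0144. GDF15, a secreted stress cytokine of the TGF-beta superfamily, read 16.22, 15.85, 15.87 and 16.11, against 15.12, 14.77, 14.45 and 13.52. Again no bystander array reached an irradiated one. The difference was 1.55 ± 0.71 and rested most on experiment 4, where it was 2.59.

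**Figure D2:**
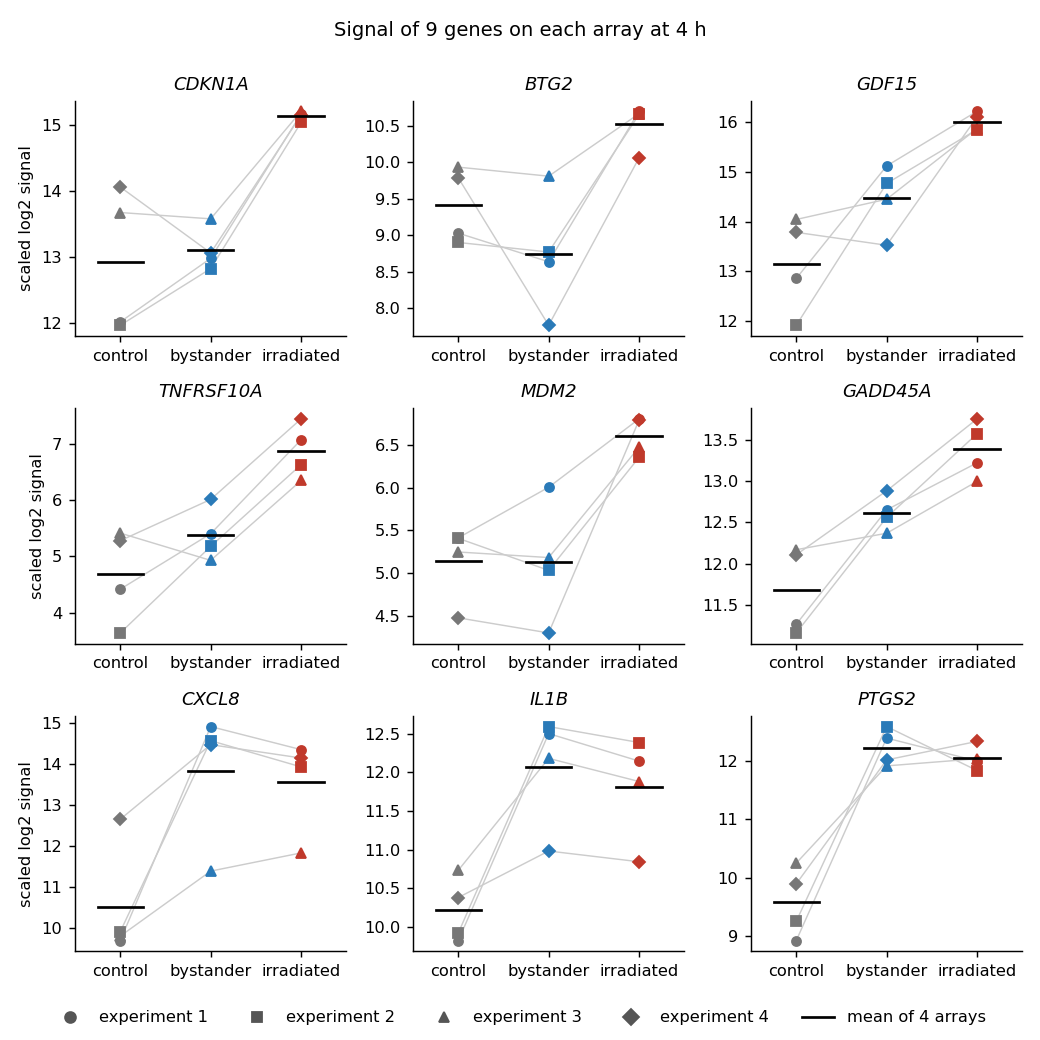
Scaled log2 signal of 9 genes on the 12 arrays at 4 h, by group, with grey lines joining the arrays of an experiment and a black bar at the mean of 4. In CDKN1A, BTG2, GDF15, TNFRSF10A, MDM2 and GADD45A every irradiated array lies above every bystander array. In CXCL8, IL1B and PTGS2 the irradiated and bystander arrays share a range.

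The p53 targets were taken in 4 lists by role, 79 genes in all, of which 75 passed the filter on dim probes. Of these 75, 26 were called higher and 0 lower, beside 0.331% of all genes, and 48 were higher in 4 of 4 experiments and 1 lower. Their median difference was 0.48, with 0.57, 0.42, 0.35 and 0.47 in the 4 experiments, while the median over all genes tested was 0.02. The lists were written with earlier results of these arrays in view, so their counts describe the comparison and are not independent evidence of it. The 4 members that the filter removed were SFN, TGFA, RPRM and GLS2. TGFA was well above background on 0 of the 8 arrays, SFN and GLS2 on 1 each, and RPRM on 2 irradiated arrays and 1 bystander array.

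Among the growth arrest genes 8 of 19 were called. Besides CDKN1A, BTG2 and GDF15 these were the stress-induced sestrins SESN1 and SESN2, the transcriptional repressor E2F7, GADD45A and the polo-like kinase PLK3. SESN1 read 10.07, 10.35, 10.08 and 9.37 in irradiated cells and 8.51, 8.66, 9.45 and 7.92 in bystander cells. Its groups touched only where the bystander array of experiment 3 passed the irradiated array of experiment 4, and the difference was 1.33 ± 0.48. GADD45A, a growth arrest and repair gene, read 13.22, 13.57, 12.99 and 13.75 against 12.65, 12.56, 12.37 and 12.88. The groups did not overlap at a difference of 0.77 ± 0.21. PLK3 differed by only 0.59, but the 4 experiments gave 0.69, 0.52, 0.57 and 0.60. CCNG2 was the single member lower in all 4 experiments, by a mean of -0.10, and it was not called.

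Among the apoptosis genes 8 of 24 were called, and 3 of them encode death receptors. TNFRSF10A, a receptor for the death ligand TRAIL, read 7.07, 6.63, 6.35 and 7.44 in irradiated cells against 5.40, 5.17, 4.93 and 6.01 in bystander cells. The groups did not overlap, and the difference of 1.49 ± 0.12 was nearly the same in every experiment. TNFRSF10B, the other TRAIL death receptor, differed by 0.80 ± 0.18 and FAS by 0.87 ± 0.18, both with groups apart. TNFRSF10C, a decoy receptor that binds TRAIL without a death domain, had a difference of 0.91 with an adjusted p of 0.233. The remaining called members were PHLDA3, a repressor of the kinase AKT, at 1.19, the mitochondrial reductase gene FDXR at 1.13, PIDD1, which encodes a death domain scaffold, at 1.00, the nuclease gene AEN at 0.91 and TRIAP1 at 0.79. BAX, the pore-forming BCL2 relative, differed by 0.58 with an adjusted p of 0.242, and PMAIP1 by 0.02.

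BBC3, which encodes the BH3-only killer PUMA, depended on the probe. The brightest of its 3 probes read 17.02, 15.38, 17.18 and 16.70 against 16.43, 15.97, 16.27 and 15.92, and its difference of 0.42 ± 0.69 was not called (adjusted p = 0.631). The middle probe read 12.82, 12.85, 13.004 and 12.55 against 10.80, 10.66, 11.76 and 10.02. On that probe the groups were apart by 2.00 ± 0.54, with an adjusted p of 0.0102. The third and dimmest differed by 1.42 ± 0.32 and was called as well. Since a gene was represented by its brightest probe, BBC3 is not among the 43.

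Among the repair and metabolism genes 8 of 21 were called. They included POLH, the polymerase that copies past ultraviolet lesions, at 1.19 ± 0.21 with both of its probes called, and DDB2 and XPC, the damage sensors of nucleotide excision repair, at 1.07 ± 0.24 and 0.74 ± 0.09. POLH read 9.97, 10.66, 10.21 and 10.14 against 8.93, 9.25, 9.23 and 8.82, with no overlap. DDB2 read 12.49, 12.71, 13.05 and 12.42 against 11.45, 11.70, 12.21 and 11.01, again apart. TIGAR, which lowers glycolytic flux, differed by 0.99 on 1 probe and by 1.02 on the other. VWCE differed by 1.12, the receptor tyrosine kinase gene EPHA2 by 0.87, SPATA18, a gene of mitochondrial quality control, by 0.86, and the F-box gene FBXO22 by 0.66. RRM2B, the p53-induced ribonucleotide reductase subunit, and PCNA, the replication clamp, had differences of 0.67 and 0.55 that were not called, although both were higher in 4 of 4 experiments.

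Among the genes that act back on p53, 2 of 11 were called. These were TP53INP1 at 1.15 ± 0.37 and the phosphatase gene PPM1D at 0.98 ± 0.26. MDM2, the ubiquitin ligase for p53, was represented by 1 dim probe that read 6.80, 6.35, 6.47 and 6.79 against 6.00, 5.03, 5.18 and 4.30. Its groups did not overlap and its difference was 1.47 ± 0.72, but the adjusted p of 0.146 missed the threshold. ZMAT3 likewise had a difference of 0.92 and an adjusted p of 0.131.

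Further p53 list members were higher in 4 of 4 experiments with an unadjusted p below 0.05 and were not called. Among them were CYFIP2 at 0.80, TOB1, an antiproliferative relative of BTG2, at 0.68, CMBL at 0.55, TRAF4 at 0.52, RPS27L at 0.48, cyclin G1, CCNG1, at 0.43 and TRIM22 at 0.43. Smaller differences were those of the ferrireductase gene STEAP3 at 0.36, APAF1, the scaffold of the apoptosome, at 0.27, the kinase gene PLK2 at 0.25, SERTAD1 at 0.21 and REV3L, the catalytic subunit of a translesion polymerase, at 0.21.

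**Figure D3:**
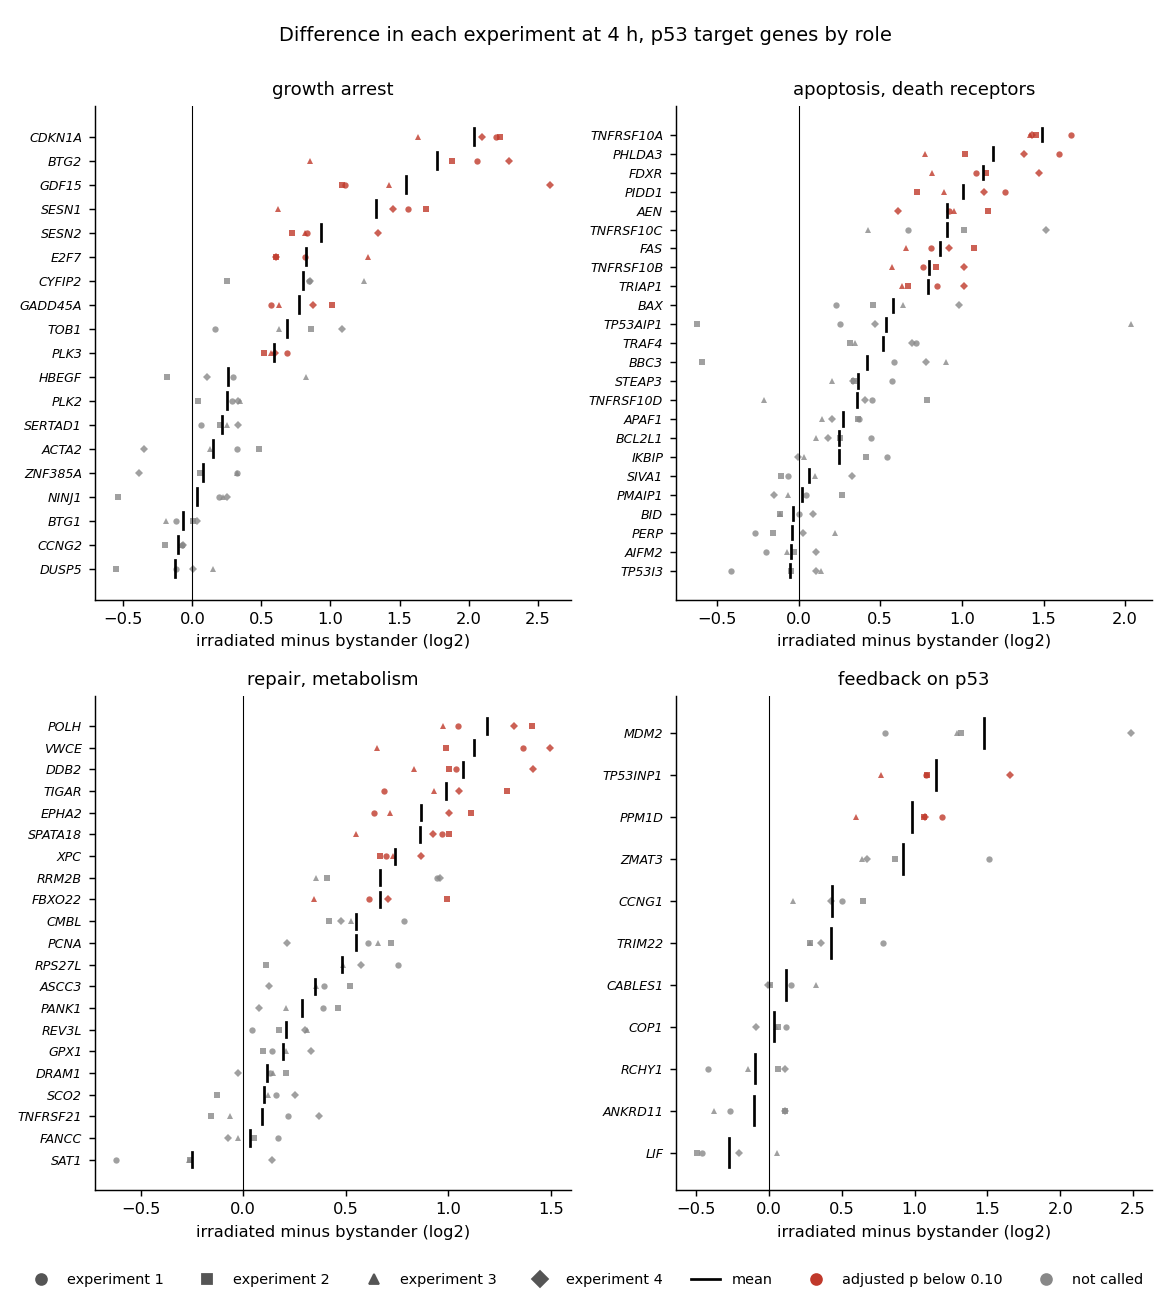
Difference in log2 signal in each of the 4 experiments for the p53 target genes that passed the filter, in 4 panels by role, with a black tick at the mean and called genes in red. The called genes lie to the right of 0 in all 4 experiments, and the largest called mean of its panel was CDKN1A at 2.04 for arrest, TNFRSF10A at 1.49 for apoptosis, POLH at 1.19 for repair and metabolism and TP53INP1 at 1.15 for feedback.

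RefSeq promoter windows, 250 bases before to 50 after an annotated start (GRCh38.p14), were matched for 34 of the 43 called genes and are shown because the called genes moved together. They were searched on both strands, since the p53 motif reads the same in its reverse complement, for a p53 full site, meaning 2 adjoining half-sites with the central C and G of each in place and at most 3 other positions departing from the p53 half-site consensus. Of the 34 genes 7 held such a match, 20.6%, against 1.37% of the 27305 genes in the whole table and 1.5% of the 10383 tested genes with a window. Some genes had several windows. Counted by window the shares were 12.7% and 1.12% of all. An exact half-site was found in 20.6% of the called genes and in 8.06% of all genes. A match describes these letters only, and no match says nothing of the factor. The 7 matches follow in order of departures from the consensus, which were 1 for DDB2, 2 for AEN and FAS and 3 for the rest, with the matched 20 bases in capitals.
DDB2 (chr11:47214964-47214993, plus strand): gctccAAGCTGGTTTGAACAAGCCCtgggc
AEN (chr15:88621301-88621330, plus strand): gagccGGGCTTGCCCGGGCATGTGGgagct
FAS (chr10:88991304-88991333, plus strand): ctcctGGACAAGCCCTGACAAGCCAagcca
FDXR (chr17:74872991-74873020, minus strand): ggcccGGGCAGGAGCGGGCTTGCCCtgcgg
GDF15 (chr19:18386181-18386207, plus strand): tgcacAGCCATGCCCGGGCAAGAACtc
SAC3D1 (chr11:65041158-65041187, plus strand): cgggaAGGCGGGCCCAGACAGGTTCagccc
SESN1 (chr6:109009013-109009042, minus strand): cgtctGGACAAGTCTCCACAAGTCAgaaat

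The AEN, FDXR, SAC3D1 and SESN1 matches began 34, 21, 47 and 49 bases before an annotated start and that of FAS 122 bases before one, while the GDF15 match began 28 bases after the start. The DDB2 match began 5 bases before an annotated start and ran across it. SAC3D1, which differed by 0.67 in these arrays, was in none of the p53 lists. The windows of BTG2 and CDKN1A held no full-site match by this rule.

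The other 17 called genes were in no p53 list. They were OR11A1, C1orf226, CYP26B1, CAVIN2, POU5F1, OSBPL3, TMEM217, ARHGEF3, INKA2, PHLDB3, BLOC1S2, MAST4, CYRIA, SAC3D1, CCN1, RFX7 and STC2. OR11A1, annotated as an olfactory receptor gene, was the largest at 1.22 ± 0.22. CYP26B1, which breaks down retinoic acid, differed by 1.13 ± 0.27. CAVIN2, a coat gene of caveolae, differed by 1.02 ± 0.09, at 7.89, 7.78, 7.77 and 6.45 in irradiated cells and 6.93, 6.79, 6.81 and 5.30 in bystander cells. Its groups overlapped, because experiment 4 was low in both, while the 4 differences were 0.96, 0.99, 0.96 and 1.15. CCN1, the matricellular YAP target also known as CYR61, differed by 0.65 ± 0.19 on the brighter of 2 probes, and both were called. The cytoskeletal regulator genes ARHGEF3 and MAST4 and the lysosome positioning gene BLOC1S2 differed by 0.91, 0.78 and 0.78. POU5F1 and STC2 each had another probe whose difference was 0.08 and 0.06, so that only 1 of the 2 probes of each carried the call. Of 13 called genes with several probes, all probes were called for 7, and all were above 0 for 13.

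GDNF, a neurotrophic factor that signals through RET and GFRA1, also depended on the probe. The dimmer of its 2 probes read 9.27, 9.36, 9.52 and 9.15 in irradiated cells and 7.80, 7.79, 7.81 and 7.03 in bystander cells, apart by 1.72 ± 0.28 with an adjusted p of 0.00582. The brighter probe read 11.09, 9.77, 11.52 and 11.19 against 10.54, 10.54, 11.08 and 9.99. That probe was lower in irradiated cells in experiment 2, and its difference of 0.36 ± 0.82 was not called. The other 3 genes with a called probe that was not their brightest were CDADC1, ASCC3 at 0.95 and STOM at 0.62. CDADC1 is given no difference, since its bystander array in experiment 4 was at the lower limit set on intensities. A further 10 of the 66 probes had no gene name here, and neither did the 1 probe called lower, which differed by -0.81.

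Of 19 cytokine and chemokine genes 0 were called in either direction, where 0.331% of all genes were called higher and 0% lower, and their median difference was -0.17. In experiments 1 and 2 the medians were -0.36 and -0.31, and in experiments 3 and 4 they were 0.03 and 0.00. CXCL8, the neutrophil chemokine interleukin-8, read 14.35, 13.93, 11.82 and 14.14 in irradiated cells and 14.91, 14.57, 11.38 and 14.47 in bystander cells. Experiment 3 was low in both groups, the groups overlapped, and the difference was -0.27 (95% interval -0.65 to 0.10, adjusted p = 0.645).

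IL6 read 13.38, 13.46, 10.04 and 12.70 against 14.04, 14.13, 9.50 and 12.77, with a difference of -0.22 and an interval from -0.64 to 0.21. PTGS2, the prostaglandin synthase COX-2, differed by -0.18 (interval -0.55 to 0.19), the alarmin gene IL33 by 0.19 (interval -0.13 to 0.52) and the chemokine gene CXCL3 by -0.31 (interval -0.64 to 0.03). IL1B was lower in irradiated cells in all 4 experiments, at -0.36, -0.21, -0.30 and -0.14 in turn, and its mean of -0.25 had an unadjusted p of 0.0140 and an adjusted p of 0.616. CCL7, a monocyte chemokine gene, had the largest difference of the list at -0.47, with -0.83, -0.35, -0.66 and -0.04 in the 4 experiments and an adjusted p of 0.592. IL11, a cytokine of the IL6 family, had the highest at 0.28 ± 0.08 (adjusted p = 0.606), and CXCL6, a neutrophil chemokine gene, differed by -0.30. In 4 of 4 experiments IL11 was the 1 list member higher and CCL7 and IL1B the 2 lower, where 8.58% and 6.73% of all genes were. No interval of CXCL8, IL6, PTGS2, IL33, CXCL3 or IL1B reached past -0.65 or 0.52, and smaller differences were not resolved by 4 experiments.

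Of 31 genes of NF-kB and its feedback 0 were called, and the median was -0.06. In 4 of 4 experiments 1 was higher and 9 were lower in irradiated cells, where 8.58% and 6.73% of all genes were. The 9 included the ribonuclease gene ZC3H12A at -0.39, NFKB1 at -0.30 and TNFAIP3, the feedback inhibitor A20, at -0.24. The stromelysin genes MMP3 and MMP10 differed by 0.36 and -0.32, and NFKBIB, an inhibitor of NF-kB, by 0.31. Of 34 immediate early genes 0 were called. Against the same shares of all genes, 7 were lower in 4 of 4 experiments, among them BHLHE40 at -0.54, EGR2 at -0.36 and MYC at -0.31, and 3 were higher, which were ATF3 at 0.79, IER5 at 0.56 and KLF4 at 0.32. FOS differed by -0.46, with 1 experiment against the rest.

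The mitosis and G2/M genes had the lowest median of the lists. Of 40, 0 were called, 0 were higher and 11 were lower in 4 of 4 experiments, where 6.73% of all genes were. CENPA, the histone variant of the centromere, read 8.08, 8.61, 7.71 and 7.76 in irradiated cells and 8.64, 8.79, 8.82 and 8.74 in bystander cells. Its groups did not overlap, and the difference of -0.71 ± 0.42 had an unadjusted p of 0.00183 and an adjusted p of 0.329. The mitotic kinases NEK2 and PLK1 differed by -0.60 and -0.52, FAM83D by -0.47 and cyclin B1, CCNB1, by -0.41. The list median of -0.17 divided by experiment into 0.06, -0.03, -0.36 and -0.36, so experiments 3 and 4 held nearly all of it.

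Of 35 replication genes 0 were called, and the median was 0.08, with 0.15, 0.20, 0.08 and -0.06 in the 4 experiments. The largest difference was that of ORC1, an origin recognition gene, at 0.54, which was not higher in every experiment. In 4 of 4 experiments 6 were higher, with MCM5 at 0.45, CDC45 at 0.36 and TYMS at 0.32 in the lead, and 1 was lower, where 8.58% and 6.73% of all genes were. The 26 genes of damage signalling and repair outside the p53 lists had a median of 0.05, with 0 higher and 0 lower in 4 of 4. The 23 SRF, YAP and contractile genes held 1 call, CCN1, beside 0.331% of all genes, and 8 members higher in 4 of 4, beside 8.58%, with a median of 0.17.

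The remaining lists other than the cell type markers held 0 calls and had medians within 0.10 of 0. These were interferon genes at -0.04, oxidative stress genes at -0.06, metallothioneins at 0.10, heat shock and unfolded protein genes at -0.02, extracellular matrix genes at 0.02 and cholesterol synthesis genes at -0.04. The cell type marker lists also held 0 calls, and their medians were 0.02 for fibroblast, 0.17 for epithelial, -0.04 for endothelial and 0.07 for leukocyte markers. The metallothionein medians in the 4 experiments were 0.04, -0.53, 0.41 and 0.49. DNAJB1, a heat shock co-chaperone gene, was lower in 4 of 4 experiments at -0.64 ± 0.75, with an adjusted p of 0.616. Over all genes the 3 lowest means among those lower in 4 of 4 experiments with an unadjusted p below 0.05 were TAAR5 at -0.85, PRR5-ARHGAP8 at -0.84 and CCL24 at -0.81, and the smallest adjusted p of the 15 lowest genes was 0.191, for CCL24, an eosinophil chemokine. The others beside CENPA, NEK2, PLK1, BHLHE40 and DNAJB1 were CAPN13 at -0.69, ABCA9 at -0.63, MTUS1 at -0.58, the DNA demethylation enzyme gene TET3 at -0.57, the G protein gene GNAQ at -0.56, GCH1, the first enzyme of tetrahydrobiopterin synthesis, at -0.54 and RFTN2 at -0.54.

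Single members of these lists reached further than the medians, without passing the test. INSIG1, which holds back sterol synthesis, differed by -0.35. The interferon-induced genes IFIT3 and IFIT2 differed by 0.34 and -0.33, and the ferritin light chain gene FTL by 0.33 beside -0.30 for GCLC, a subunit of the glutathione-making ligase. Periostin, POSTN, differed by -0.40 and decorin, DCN, by 0.26. THBS1 and CCN2, both YAP targets, differed by 0.36 each, with 3 of 4 experiments higher, and LIG4, the ligase of end joining, by -0.40. XRCC6, which encodes the Ku70 subunit, differed by 0.27, the repair genes FANCD2 and RAD54L by 0.28 and 0.21 and the smooth muscle myosin gene MYH11 by 0.31.

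In the metallothionein list MTF1, the metal-responsive transcription factor, had the largest difference at 0.34, followed by MT3 at -0.27, MT2A at 0.27 and MT1G at 0.18. The co-chaperone gene BAG3 differed by -0.33 and the HSP70 genes HSPA1L and HSPA1A by -0.31 and -0.30. IRF9 and the RNA sensor gene IFIH1 differed by -0.29 and -0.24, the sulfiredoxin gene SRXN1 by -0.28, the sterol synthesis genes MVK and HMGCS1 by 0.27 and -0.25, the membrane metalloproteinase gene MMP14 by 0.26 and COL6A1 by 0.23. None of these genes was called. Among the cell type markers the differences were 0.25 for THY1, 0.21 for S100A4 and -0.20 for PDGFRA in the fibroblast list, 0.20 for MUC1, 0.20 for KRT8, 0.17 for SFTPC and 0.17 for SCGB1A1 in the epithelial list, -0.20 for KDR, -0.04 for TEK, -0.03 for CLDN5 and 0.01 for VWF in the endothelial list, and 0.18 for CD3E, 0.07 for CD68 and 0.04 for CD14 in the leukocyte list.

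**Figure D4:**
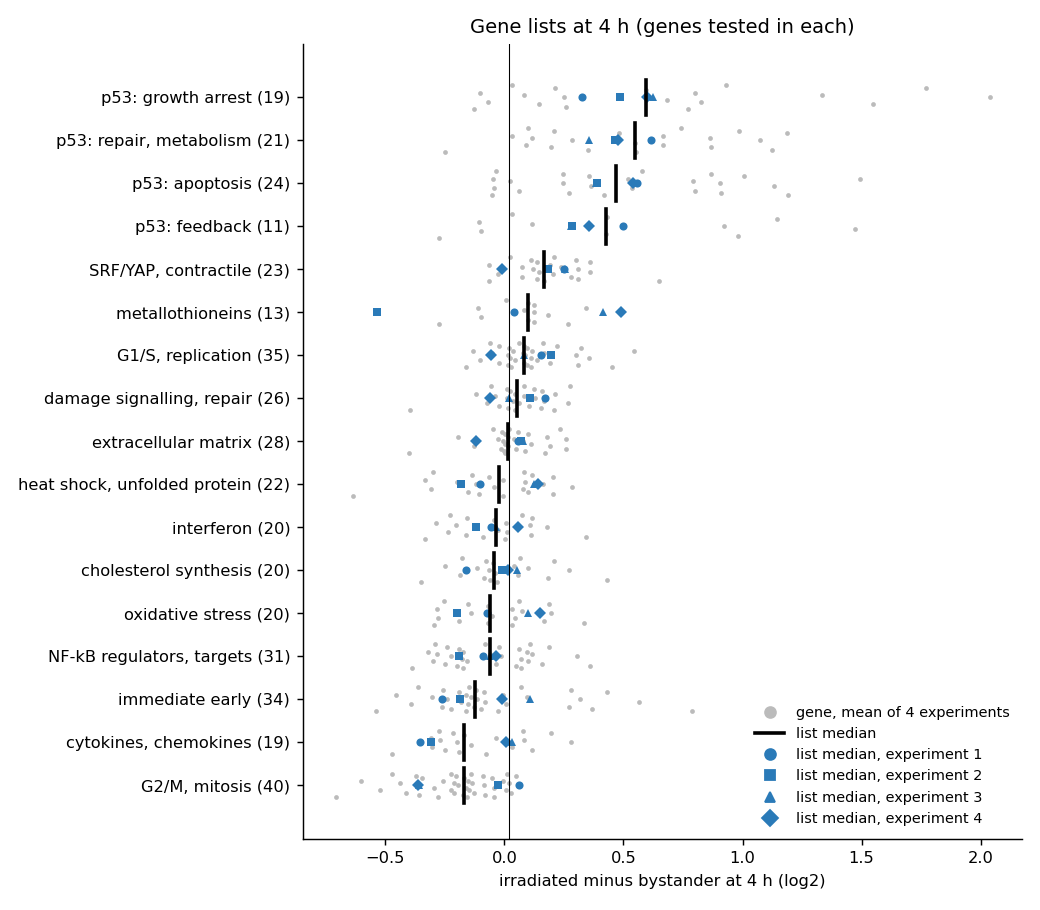
Gene lists ordered by their median difference at 4 h, with the number of genes tested in each. Grey points are genes (mean of 4 experiments), black ticks list medians and blue symbols the list median in each experiment; the 4 p53 lists lie between 0.43 and 0.59 in every role, and the medians of the other lists shown lie between -0.17 and 0.17.

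The same contrast at the other times used other arrays, of the same 4 experiments and their cell pools, which the choice at 4 h did not use. At 0.5 h and 1 h, 0 probes were called (0%), with 5.5% and 19.2% of probes at an unadjusted p below 0.05 by limma. The 43 genes had medians of 0.00 and 0.07, and 2 and 11 of them were higher in 4 of 4 experiments, where 3.89% and 13.3% of all genes were. At 2 h, 28 probes were called higher, 0.111%, and 0 lower, with 5% at an unadjusted p below 0.05. Of the 43 genes 14 were among the called and 37 were higher in 4 of 4 experiments (5.32% of all genes), at a median of 0.41. At 6 h, 5 probes were called higher, 0.0199%, with 6.81% at an unadjusted p below 0.05, and 38 of the 43 genes were higher in 4 of 4 (10.7% of all genes) at a median of 0.64, though only FDXR, VWCE and DDB2 were called. At 24 h, 0 probes were called, with 2.67% at an unadjusted p below 0.05. All 43 means were above 0, 24 genes were higher in 4 of 4 (5.84% of all genes), and the median was 0.39. The median over all genes tested stayed between -0.01 and 0.03 at all 6 times. These calls depended on the fit as well, and with no experiment block 0 probes were called at 2 h and 6 h. Left unscaled, the calls higher and lower were 183 and 325 at 1 h, 11 and 6 at 2 h and 25 and 111 at 6 h.

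Called genes differed in when they led. BTG2 had nearly reached its difference by 2 h, at 1.67, and stood at 0.98 at 6 h. SESN2 and AEN were also about as far apart at 2 h, at 0.98 and 0.92, as at 4 h, and GADD45A was farther apart at 2 h, at 1.16, than at 4 h. CDKN1A stood at 1.51, 2.04, 1.17 and 0.80 at 2, 4, 6 and 24 h. XPC differed by -0.01 at 2 h, and FDXR, DDB2, CYP26B1 and C1orf226 had larger values at 6 h, at 1.35, 1.26, 1.48 and 1.45, than at 4 h. The change in the difference was tested as well, and 0 probes passed between 4 h and 2 h or between 4 h and 6 h, with 5.43% and 1.75% of probes at an unadjusted p below 0.05. For CDKN1A the change from 2 h was 0.53 with an adjusted p of 0.863. The order in time is therefore a description.

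**Figure D5:**
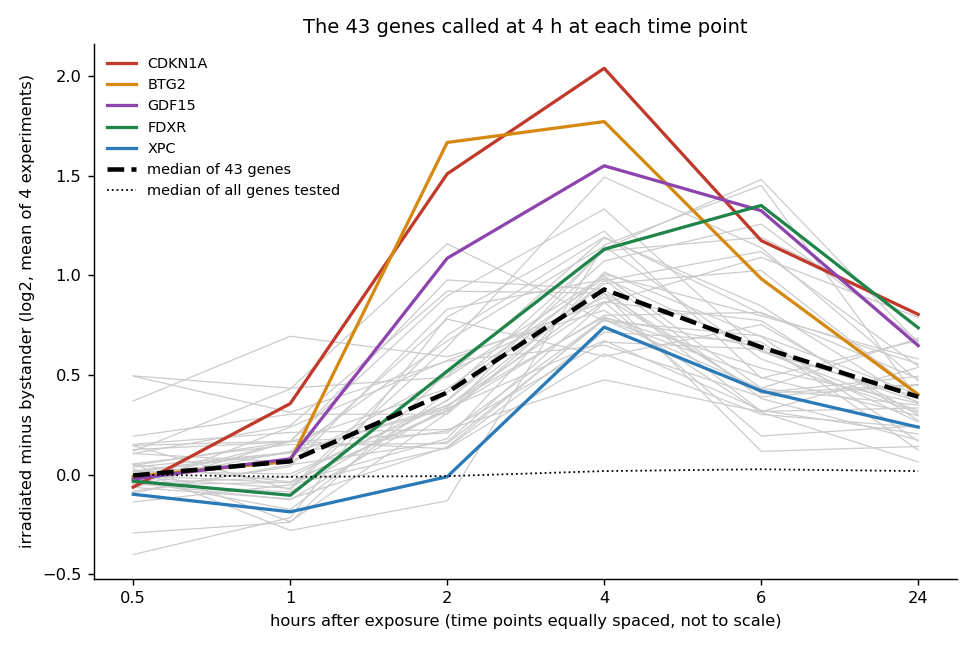
Difference between irradiated and bystander cells (log2, mean of 4 experiments) for the 43 genes called at 4 h, at 6 equally spaced time points that are not to scale. The dashed median of the 43 genes runs from 0.00 at 0.5 h through 0.41 at 2 h and 0.93 at 4 h, the point at which the genes were chosen, to 0.39 at 24 h, and the dotted median of all genes stays near 0.

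The control arrays place the 2 groups, with the caution that both contrasts share the controls with each other and an arm with the direct comparison. Against controls at 4 h, 0.763% of probes were higher and 0.230% lower in irradiated cells, or 0.877% and 0.331% of genes, and in bystander cells 0.473% and 0.0993% of probes, or 0.585% and 0.146% of genes. Of the 43 genes, 21 were called higher in irradiated cells than in controls and 33 were higher in 4 of 4 experiments (8.32% of all genes), with a median of 0.85. In bystander cells 0 of the 43 were called against controls, 6 were higher in 4 of 4 (8.76% of all genes), and the median was -0.12. Calls against controls depended on the fit too. Without the block 26 probes were called in irradiated and 7 in bystander cells, against 250 and 144 with it. Without scaling these counts were 161 and 3726. The 4 control arrays were far apart for some genes, and CDKN1A read 12.01, 11.96, 13.67 and 14.06 on them, above its bystander array in experiments 3 and 4. The mean change that CDKN1A showed from control was 2.22 in irradiated and 0.18 in bystander cells, and that of FAS was 1.17 and 0.30. GDF15 had 2.87 and 1.32, and GADD45A 1.71 and 0.94, with adjusted p of 0.203 and 0.136 for the bystander values. The bystander mean lay above controls for 14 of the 43 genes and below for the rest, lowest for CAVIN2 at -0.87, BTG2 at -0.67 and EPHA2 at -0.65, none of them called. CAVIN2 in irradiated cells was 0.14 above controls, so most of its difference lay between bystander and control cells.

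The inflammatory genes differed widely in their distance from controls. CXCL8 was 3.06 above controls in irradiated and 3.33 in bystander cells, with adjusted p of 0.0339 and 0.0321, and PTGS2 2.47 and 2.64. IL33 was 2.54 and 2.34 above controls, and IL1B 1.60 and 1.85. The direct differences between the groups for these 4 genes, from -0.27 to 0.19, were small beside these distances. Other members of the cytokine list lay near or below controls, as CCL2 did at -0.07 in irradiated and 0.00 in bystander cells, CXCL12 at -0.62 and -0.58 and CCL11, an eosinophil chemokine, at -1.81 and -1.88.

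At 4 h the arrays of experiment 1 lay on 1 slide, both arrays of experiment 2 and the irradiated array of experiment 3 on another, and the bystander array of experiment 3 and both arrays of experiment 4 on the last. Each slide thus held both groups. The 43 genes were chosen on these same arrays, and the value of the first slide is the difference in experiment 1, so the within-slide values are a description. They were above 0 on all 3 slides for 40 of the 43 genes, where 18.8% of all genes were. The exceptions were CCN1 at -1.05 on the middle slide and, on the last slide, CYRIA at -0.71 and SPATA18 at -0.04. CDKN1A gave 2.20, 2.31 and 1.84 on the 3 slides, TNFRSF10A 1.67, 1.31 and 1.97, and SESN1 1.56, 1.55 and 0.68.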

How the data were processed

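The 8 arrays were 1-colour Agilent whole human genome arrays (Cy3), and the authors deposited for each spot an intensity from Feature Extraction 9.1.3.1, per the file headers after background subtraction and removal of spatial trends, with no scaling between arrays. The authors' table of log2 values of the same intensities was an alternative, and the detection and non-uniformity marks were used as deposited. The multiplicative trend was corrected on all arrays but 1, the irradiated array of experiment 1 at 4 h. On the 8 arrays 68.2% to 73.7% of spots exceeded background by 2.6 SD, and the number of arrays limits the precision.

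Control and non-uniform spots were left out, intensities were scaled to a common 75th percentile, set to at least 8 and taken to log2, and spots of a probe were averaged. Probes with more than 10% of the 72 arrays dim or non-uniform were removed, which left 25168 of 41000 with a value on all 8 arrays. RefSeq symbols were matched for 28697 probes, and the probe with the highest mean over the 8 arrays stood for its gene.

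The difference was fitted with limma 3.58.1 in R 4.3.3, with the experiment as a block, a variance trend in intensity, and p-values adjusted by Benjamini and Hochberg's method across the probes tested. The pairing comes from the methods, which describe 1 pool of cells per experiment. Same-numbered arrays deviated together from their group means (r = 0.60, 0.67, 0.80 and 0.84). In experiments 1, 2 and 4 they also shared a slide, and the parts of pool and slide were not tested. Alternatives covered scaling, background correction, filter, block, slide, control arrays in the fit and leaving out each experiment.

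Members, gene lists and tests were chosen with earlier results of these data known. The text names the 15 highest and 15 lowest genes that were called or, as values, had an unadjusted p below 0.05 and 1 direction in 4 of 4 experiments, p53 list members past either limit, the 4 largest differences of other lists and 12 fixed genes. Of the genes so chosen 2 are not reported here. Where it names others (the rest of the 43 called genes, further list members, second probes), these were chosen after their values were seen.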

Additional observations from a re-analysis of the deposited data

Results flagged for a closer look

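Single arrays were compared with the rest of their group for 131 genes in both groups, 262 groups of 4 arrays by Dixon's test, and chance alone singles out about 1 in 20 groups. In 22 groups the lowest or highest array stood apart, and each value below is a scaled log2 signal.

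Among called genes, the irradiated array of experiment 4 was low for BTG2 at 10.06, with the next array at 10.65, and that experiment was low for CAVIN2 in both groups, at 6.45 in irradiated and 5.30 in bystander cells. SESN2 was low in the bystander array of experiment 4 at 8.33, PHLDA3 was high there at 12.64, and TNFRSF10B was high in the irradiated array of experiment 4 at 14.07.

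Experiment 3 stood low for CXCL8 in both groups, at 11.82 in irradiated cells, where the next array read 13.93, and at 11.38 in bystander cells, where the next read 14.47. The same experiment was low in irradiated cells for the repair genes FANCD2 at 9.18 and RAD54L at 8.49 and for the sulfiredoxin gene SRXN1 at 12.001. It was low in bystander cells for the origin recognition gene ORC1 at 4.75, and high there for the matrix gene POSTN at 13.15, for CD68 at 9.95 and for TAAR5 at 9.24.

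Experiment 4 was high for the matricellular gene CCN2 in both groups, at 15.89 and 15.98. It was also high for STEAP3 in bystander cells at 10.66 and for MVK in irradiated cells at 10.96, and low for IFIT2 in bystander cells at 5.81. Experiment 2 was low in irradiated cells for SCGB1A1 at 5.47 and for PRR5-ARHGAP8 at 4.95.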

How the results depend on the processing

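At 4 h 66 probes were called higher and 1 lower. The counts were 4 and 16 without scaling, 0 and 0 with no filter on dim probes, 1 and 0 without the replicate block, 2 and 0 with 12 arrays in the fit and 2 and 0 with the slide as the block, and the cause was not tested. Quantile normalization gave 65 and 1, normexp 93 and 2, the authors' values 65 and 1, a filter on the 8 arrays alone 60 and 2, and signals before multiplicative detrending, chosen after the data were seen, 62 and 1. Leaving out 1 experiment gave from 3 to 268 higher and from 0 to 34 lower. Of the 66, 65 stayed above 0 in the authors' values, which held 65 of them, and 66 with quantile normalization, normexp, the slide as the block and the signals before detrending. Left unscaled, which lowered the mean differences about alike, 65 of the 66 stayed above 0. The other fits keep the same means or average differences that were all above 0, so their signs were fixed. Without scaling the mean differences at 4 h fell by about the same amount. The experiments fell unequally, with medians over all probes of -0.36, -0.06, -1.25 and -0.27 in experiments 1 to 4. The list medians of the mean differences became 0.087 (p53 arrest), -0.080 (p53 feedback), -0.037 (p53 apoptosis), 0.044 (p53 repair), -0.45 (damage signalling), -0.67 (cytokines), -0.57 (NF-kB), -0.63 (immediate early), -0.68 (mitosis), -0.43 (replication), -0.54 (interferon), -0.57 (oxidative stress), -0.41 (metallothioneins), -0.53 (heat shock), -0.34 (SRF and YAP), -0.49 (matrix), -0.55 (cholesterol), -0.49 (fibroblast), -0.33 (epithelial), -0.55 (endothelial) and -0.44 (leukocyte), beside -0.48 for all probes. Also without scaling, calls higher and lower were 3 and 2 at 0.5 h, 183 and 325 at 1 h, 11 and 6 at 2 h, 25 and 111 at 6 h and 0 and 1 at 24 h, and 2 probes changed between 4 h and 6 h. Without the block 0 probes were called at 2 h and 0 at 6 h. Against controls 250 probes were called in irradiated and 144 in bystander cells, and these counts were 161 and 3726 without scaling and 26 and 7 without the block. Of the 31 called genes named by the rule, from 0 to 31 kept their call.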

Other observations

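The spread of CDKN1A differed by group in a way that the direct comparison does not use. Its 4 irradiated arrays had an SD of 0.07 and its 4 bystander arrays one of 0.33, and its control arrays read 12.01, 11.96, 13.67 and 14.06. GDF15 read 12.85, 11.91, 14.04 and 13.78 on the control arrays, GADD45A 11.27, 11.16, 12.17 and 12.11, and TNFRSF10A 4.42, 3.64, 5.41 and 5.28. These 4 genes were chosen after their values were seen, and others ran the other way, as FAS did at 9.22, 9.29, 9.03 and 9.07 and PPM1D at 10.43, 10.11, 9.74 and 9.77. The control arrays of experiments 1 and 2 shared a slide, and those of experiments 3 and 4 lay on the other 2 slides, whose part was not tested.

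GFRA1, which encodes the co-receptor of GDNF, was measured by 2 probes. They differed between irradiated and bystander cells by 0.44 ± 0.37 and 1.37 ± 1.87, both higher in 4 of 4 experiments, and neither was called, with adjusted p of 0.616 for both by limma. It was named after its values were seen.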
